A study of Homo sapiens with 36 samples.

Results

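The genes described here are 10 human tubulin genes, 4 encoding alpha-tubulin (TUBA1A, TUBA1B, TUBA1C and TUBA4A) and 6 encoding beta-tubulin (TUBB, TUBB2A, TUBB2B, TUBB3, TUBB4B and TUBB6). They were taken by name from the 35474 genes whose transcripts could be summed by symbol. The list was drawn up because TUBA1A was lower after treatment in MONO-MAC-6 and differed in response between the cell lines, so the TUBA1A values in those contrasts are given as a description and carry no test. The study exposed a pair of established human acute myeloid leukaemia (AML) lines, MOLM-13 and MONO-MAC-6, both labelled wild type, to A9, a PROTAC (a molecule that brings a target protein to a ubiquitin ligase for degradation), or to the solvent DMSO. The series title names the targets as IKK1 and NR4A1, and its design text names IKK2 and NR4A1. A9 was given for 72 h at 0.125 µM to MOLM-13 and at 0.25 µM to MONO-MAC-6, so the design cannot separate line from dose in any difference of response. Polyadenylated RNA was sequenced in bulk. Each of the 4 groups (MOLM-13 DMSO, MOLM-13 A9, MONO-MAC-6 DMSO, MONO-MAC-6 A9) had 9 libraries. These were averaged into 3 samples by the first number of their labels, and nothing in the labels says that the 3 came from separate cultures, so p-values measure only the spread between these samples.

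Alpha- and beta-tubulin pair into the dimers that polymerise as microtubules, which carry intracellular transport and form the mitotic spindle. Each subunit is encoded by a family of closely related genes, the isotypes, of which TUBA1B, TUBA1C, TUBB and TUBB4B are found in most dividing cells. TUBA1A is best known from developing neurons, TUBA4A from platelets and other non-dividing cells, TUBB3 and TUBB2B from neurons, and TUBB6 from many tissues at lower levels. Cells also adjust tubulin mRNA to the supply of free subunits: the factor TTC5 binds the first residues of a tubulin chain as it leaves the ribosome and, through SCAPER and the CCR4-NOT deadenylase, directs that mRNA to decay.

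The first 30 coding bases are printed for the 4 alpha genes and for the 3 most abundant beta genes, because they encode the chain start that TTC5 reads and because they show how alike the genes are. They are 5′ to 3′ from GENCODE 29 (GRCh38), with the first 4 codons in capitals.
TUBA1A: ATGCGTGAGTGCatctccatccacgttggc
TUBA1B: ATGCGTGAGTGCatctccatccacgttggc
TUBA1C: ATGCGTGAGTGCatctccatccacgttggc
TUBA4A: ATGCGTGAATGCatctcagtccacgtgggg
TUBB: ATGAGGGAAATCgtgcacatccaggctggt
TUBB4B: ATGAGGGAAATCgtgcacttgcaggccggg
TUBB6: ATGAGGGAGATCgtgcacatccaggcgggc
The 3 genes TUBA1A, TUBA1B and TUBA1C shared the whole stretch. Over the coding sequence TUBA1A was 97.2% identical to TUBA1B (38 of 1356 aligned bases differed) and 96.3% identical to TUBA1C, and 85.0% identical to TUBA4A. Against the beta genes TUBA1A was 55.4 to 57.4% identical.

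Of the 31-base words of the transcript TUBA1A-202, 36.8% occurred in no other gene's transcript in the tables and 62.2% were shared with another member of the list. Unshared words made up 27.8% for TUBA1B-202, 64.2% for TUBA1C-201, 60.1% for TUBA4A-201, 72.3% for TUBB-205, 74.4% for TUBB4B-201, 93.9% for TUBB6-201 and 9.37% for TUBB3-201. Most words of TUBB3-201 were also in ENSG00000198211, an annotated gene that spans TUBB3 and was listed at 0.0335 TPM or less in every sample. How the estimates divided shared reads was not tested, so the levels of TUBA1A, TUBA1B, TUBA1C, TUBB2A, TUBB2B and TUBB3 are uncertain to that degree. Sharing with the unmatched transcripts is unknown for every member, TUBB included, so the TUBB level and the beta sums carry that uncertainty too.

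TUBA1B (ENSG00000123416, chr12:49127782-49131397, minus strand), TUBA1A (ENSG00000167552, chr12:49184796-49189324, minus strand) and TUBA1C (ENSG00000167553, chr12:49188736-49274603, plus strand) are neighbours on chromosome 12. The annotated spans of TUBA1A and TUBA1C overlap on opposite strands, and whether counting used strand is not given in the sources used here. TUBA4A (ENSG00000127824) lies at chr2:219249711-219278170 on the minus strand. Of the beta genes, TUBB (ENSG00000196230) lies at chr6:30720201-30725426, TUBB4B (ENSG00000188229) at chr9:137241213-137243707, TUBB6 (ENSG00000176014) at chr18:12307669-12344320 and TUBB3 (ENSG00000258947) at chr16:89921392-89938761, all on the plus strand. TUBB2A (ENSG00000137267) and TUBB2B (ENSG00000137285) lie at chr6:3153669-3157526 and chr6:3224261-3231730 on the minus strand.

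Levels are in TPM, a transcript's share of its library after scaling for transcript length, set to a sum of 1000000. A trend on length remained between samples, seen as Spearman's correlation of a gene's deviation from its line's mean with its transcript length. The correlation was 0.53 and -0.43 in MOLM-13 DMSO samples 1 and 3. It was -0.5 in MOLM-13 A9 sample 3 and -0.48 in MONO-MAC-6 DMSO sample 1. Read totals are not in the tables, so the depth behind each value is unknown. In bulk RNA, fewer cells of a type and less RNA per cell cannot be told apart. The libraries matched their label as myeloid cells: 6 or 7 of 8 myeloid markers reached 1 TPM in each group, while CD3E, CD2, MS4A1, HBB, KRT19 and SYT1 stayed under 0.1 TPM in every sample. MONO-MAC-6 DMSO sample 1 stood apart from its group, correlating with samples 2 and 3 at 0.974 and 0.966 (Pearson's r of log2 values across genes) against 0.994 between those, and the main values that move without it are also given that way.

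The mean levels of the genes fell in the same order in all 4 groups. TUBA1B was highest, followed by TUBB, TUBA1C, TUBB4B, TUBB6, TUBA4A, TUBA1A and TUBB3, with TUBB2A below 1 TPM on average in every group and TUBB2B listed at 0 in all 36 libraries. Together the 10 genes made up 0.286 to 0.393% of a sample's TPM. Of the 10, the 8 other than TUBB2A and TUBB2B passed the minimum used for testing, which was a group mean of 1 TPM or more.

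Among the alpha genes, TUBA1B held 76.5 to 81.4% of the summed alpha TPM in each sample and TUBA1A 0.152 to 0.571%. The summed alpha level was 1864 ± 31.3 TPM in MOLM-13 DMSO, 1838 ± 120 in MOLM-13 A9, 2442 ± 99.2 in MONO-MAC-6 DMSO and 2000 ± 53.4 in MONO-MAC-6 A9 (SD, n = 3). The summed beta level was 1393 ± 76.3, 1335 ± 158, 1214 ± 187 and 1131 ± 27.2 TPM in the same order. The ratio of alpha to beta TPM was therefore 1.25 to 1.44 in MOLM-13 DMSO, 1.28 to 1.48 in MOLM-13 A9, 1.83 to 2.31 in MONO-MAC-6 DMSO and 1.76 to 1.78 in MONO-MAC-6 A9. It was higher in every MONO-MAC-6 sample than in any MOLM-13 sample. The highest ratio, 2.31, belonged to MONO-MAC-6 DMSO sample 1, in which TUBB was lowest. The part of the length trend in these ratios was not tested.

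**Figure D1:**
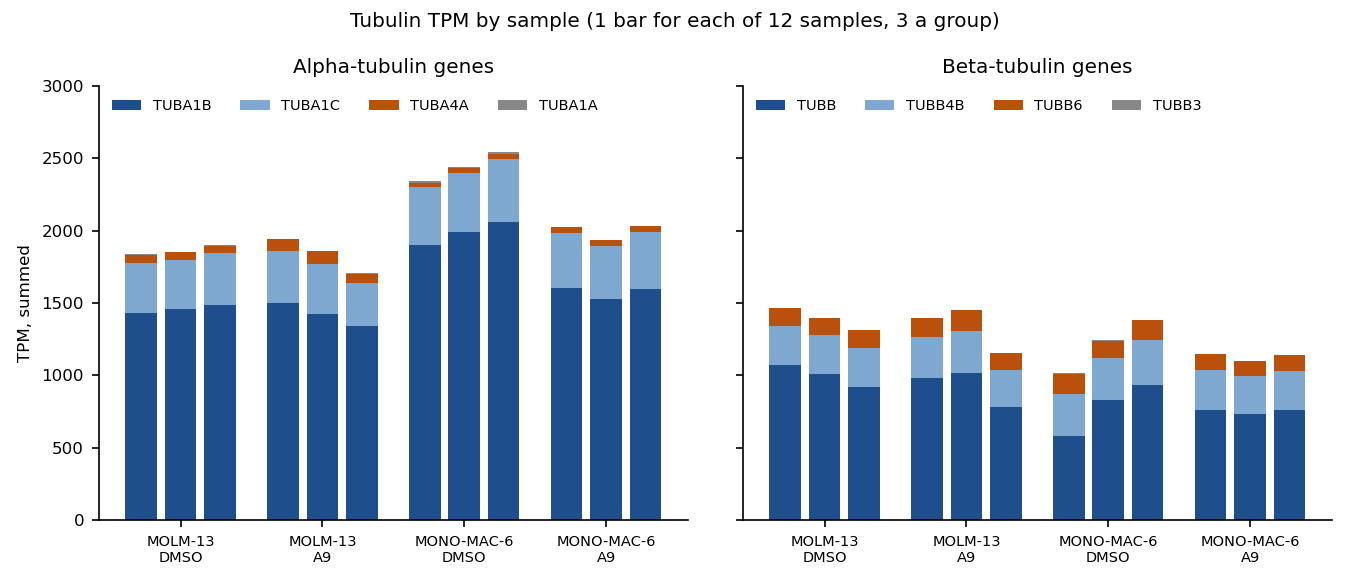
Summed TPM (y axis) of the alpha-tubulin genes (left) and the beta-tubulin genes (right) in each of the 12 samples, 3 bars a group, divided by gene. The alpha sum was 2342 to 2541 TPM in MONO-MAC-6 DMSO and 1939 to 2035 in MONO-MAC-6 A9, and TUBA1A and TUBB3 are too low to be seen at this scale.

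The DMSO samples of the lines were compared first. They are called untreated below, meaning given the solvent and no A9. TUBA1A was selected on its A9 effects, which rest on the same DMSO samples, so its values here are a description with no test, and p-values are given for the other members. The lines are in separate tables, so line and anything else that differed between the tables cannot be told apart. TUBA1A was 3.62, 2.83 and 3.51 TPM in MOLM-13 DMSO samples 1, 2 and 3 and 13.4, 13.3 and 11.6 TPM in the MONO-MAC-6 ones. The groups did not overlap, and the mean in MONO-MAC-6 was 3.84 times that in MOLM-13. On the log2(TPM + 1) scale, which understates the change of low genes, the difference was 1.67 (SE 0.142).

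TUBA4A, the alpha gene associated with non-dividing cells, went the other way. Its level was 57.1, 55.4 and 52.6 TPM in MOLM-13 DMSO and 29.0, 30.6 and 35.1 TPM in MONO-MAC-6 DMSO, a log2 difference of -0.79 (SE 0.104, limma adjusted p = 0.00114). TUBA1B, the main alpha gene, was 1429, 1458 and 1487 TPM against 1903, 1988 and 2060 TPM, a log2 difference of 0.44 (SE 0.0759, limma adjusted p = 0.00347). TUBA1C was 349, 338 and 355 TPM against 397, 411 and 433 TPM, a difference of 0.25 (limma adjusted p = 0.0294). Median-ratio scaling of the samples ended both calls, at limma adjusted p = 0.173 and 0.509. With protein-coding transcripts alone the TUBA1C difference was 0.01 (limma adjusted p = 0.899), and it missed the threshold in 5 of the 6 fits that left out a sample, at up to 0.136.

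No beta gene passed the threshold between the lines. TUBB, the main beta gene, was 1073, 1010 and 919 TPM in MOLM-13 DMSO and 580, 833 and 936 TPM in MONO-MAC-6 DMSO, and the groups overlapped (log2 difference -0.38, limma adjusted p = 0.143). Leaving out the 580 TPM sample gave -0.18 (limma adjusted p = 0.142). With median-ratio scaling TUBB passed, at a log2 difference of -0.50 (limma adjusted p = 0.0228). TUBB4B and TUBB6 differed by 0.13 each (limma adjusted p = 0.172 and 0.233) and TUBB3 by -0.31 (limma adjusted p = 0.0832). Of the 7 members tested other than TUBA1A, 3 passed, 2 higher and 1 lower in MONO-MAC-6, where 48.8% of all genes tested passed (30.4% higher and 18.4% lower). The members' share was thus near that of all genes. The samples of 6 members, TUBA1A included, did not overlap, 4 higher (TUBA1A, TUBA1B, TUBA1C and TUBB4B) and 2 lower (TUBA4A and TUBB3), against 59.0% of all genes (34.9% higher and 24.1% lower). This count, unlike that of the genes that passed, includes the selected gene TUBA1A, so nothing is read from it.

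**Figure D2:**
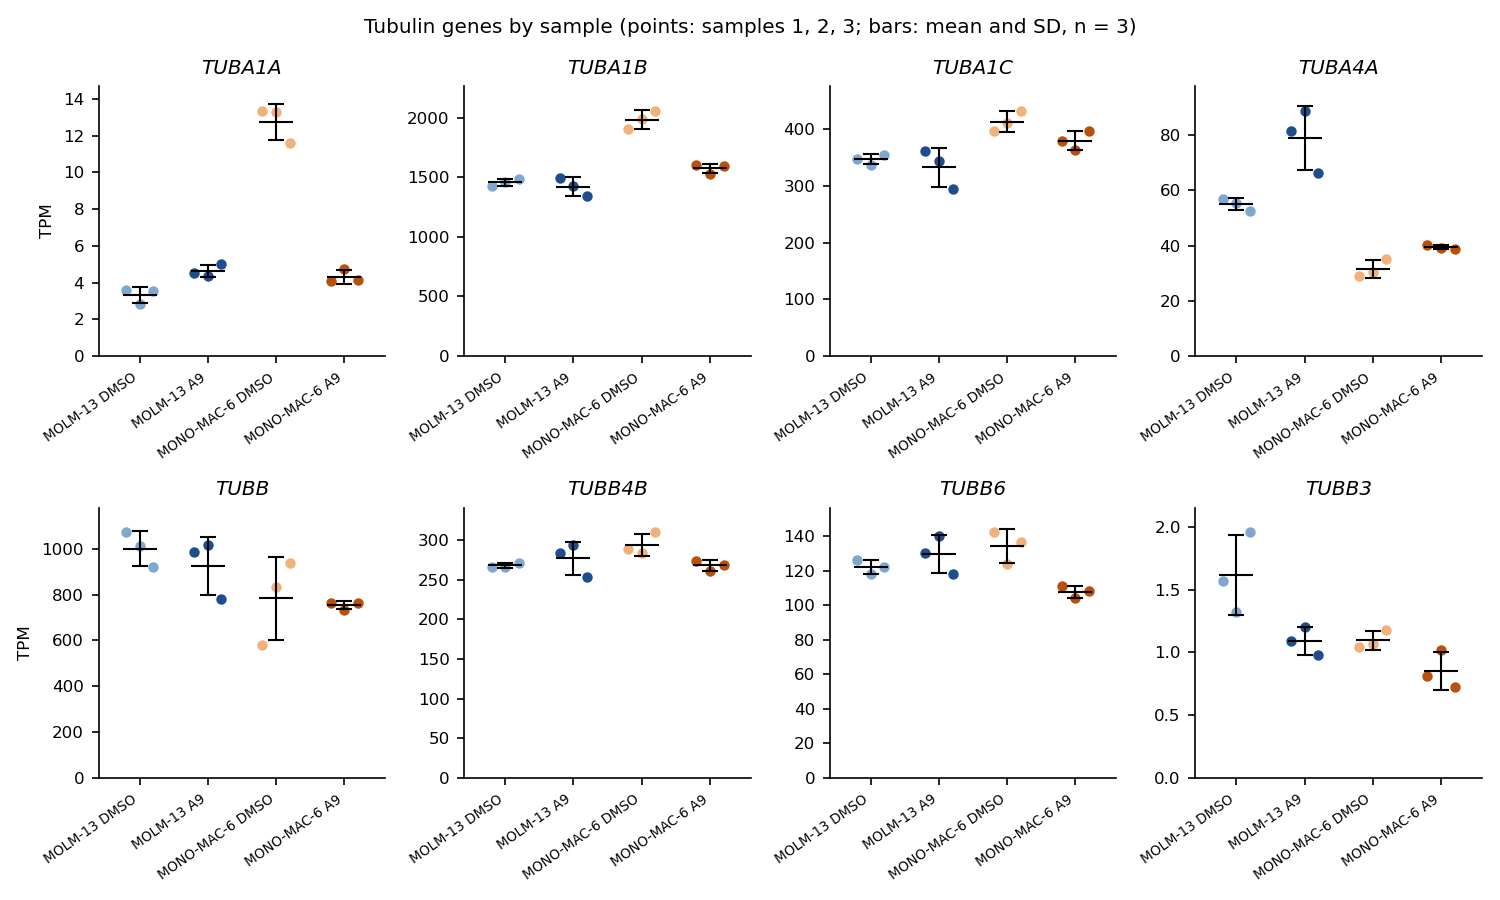
TPM (y axes, each from 0) of the 8 tested tubulin genes by group, with the 3 samples as points and the mean and SD as bars. TUBA1A was 11.6 to 13.4 TPM in MONO-MAC-6 DMSO and at most 5.01 TPM in any sample of the other groups.

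In MOLM-13, A9 was compared with DMSO at 0.125 µM. TUBA4A had the highest log2(TPM + 1) difference of the members in either direction, at 57.1, 55.4 and 52.6 TPM with DMSO and 81.6, 88.9 and 66.3 TPM with A9. The groups did not overlap, and the log2 difference was 0.50 (SE 0.115), but the limma adjusted p was 0.234. It passed with median-ratio scaling (log2 difference 0.55, limma adjusted p = 0.0466) and with a trend on transcript length removed (0.51, limma adjusted p = 0.0275). TUBA1A was 3.62, 2.83 and 3.51 TPM with DMSO and 4.52, 4.35 and 5.01 TPM with A9, a log2 difference of 0.39 (SE 0.126), and its A9 samples all lay above its DMSO samples.

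The abundant isotypes overlapped between treatments in MOLM-13. TUBA1B was 1429, 1458 and 1487 TPM with DMSO and 1497, 1424 and 1342 TPM with A9 (log2 difference -0.04, SE 0.0610, limma adjusted p = 0.896). TUBB was 1073, 1010 and 919 TPM with DMSO and 984, 1015 and 781 TPM with A9 (-0.12, SE 0.117, limma adjusted p = 0.870). The differences were -0.06 for TUBA1C, 0.04 for TUBB4B and 0.08 for TUBB6. A9 sample 3 was the lowest of its group for TUBA1B, TUBA1C, TUBA4A, TUBB, TUBB4B and TUBB6, and without it the signs of the small TUBA1B, TUBA1C and TUBB differences turned. TUBB3 was 1.57, 1.32 and 1.96 TPM with DMSO and 1.09, 1.20 and 0.974 TPM with A9 (-0.32, limma adjusted p = 0.629). As a ratio of mean TPM, the TUBB3 difference was 1.48-fold lower and that of TUBA4A 1.43-fold higher. By limma 0 of the 8 members passed and 3, TUBA1A among them, had an unadjusted p under 0.05, against 0.121% (0.0862% higher and 0.0345% lower) and 7.90% of all genes tested. The samples of 3 members (TUBA1A and TUBA4A higher, TUBB3 lower) did not overlap, against 15.0% of all genes (8.59% higher and 6.42% lower). TUBA1A was chosen on a difference between lines that includes its effect here. Nothing is therefore read from the counts that include it.

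In MONO-MAC-6, A9 was compared with DMSO at 0.25 µM, the contrast on which the list was drawn up. TUBA1A was 13.4, 13.3 and 11.6 TPM with DMSO and 4.06, 4.75 and 4.14 TPM with A9. All A9 samples lay far below all DMSO samples, and the mean was 2.96 times lower. The log2 difference was -1.37 (SE 0.125), or -1.53 relative to the median of all genes in that contrast, which was 0.16. With A9 the TUBA1A samples of the lines overlapped, whereas with DMSO they did not, and every MONO-MAC-6 A9 sample lay above every MOLM-13 DMSO sample.

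TUBA1A was measured in 3 repeat libraries for each sample. Over single libraries it ranged from 9.47 to 14.5 TPM in MONO-MAC-6 DMSO and from 3.56 to 5.35 TPM in MONO-MAC-6 A9, without overlap. In MOLM-13 the single libraries overlapped, at 2.50 to 4.01 TPM with DMSO and 3.38 to 5.47 TPM with A9. For TUBA1A the median SD on the log2 scale was 0.157 between repeat libraries of a sample and 0.103 between samples. For TUBB3 these were 0.211 and 0.0978. The first SD is of single libraries and the second of means of 3 libraries. A larger first value therefore does not show that libraries varied more than samples. For TUBA1B the SD between repeat libraries was the smaller (0.0113 and 0.0469). One transcript, TUBA1A-202, carried 79.9 to 92.9% of TUBA1A in the group means, and alone it was 11.8 ± 1.08 TPM with DMSO and 3.45 ± 0.228 TPM with A9 in MONO-MAC-6 (SD, n = 3).

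**Figure D3:**
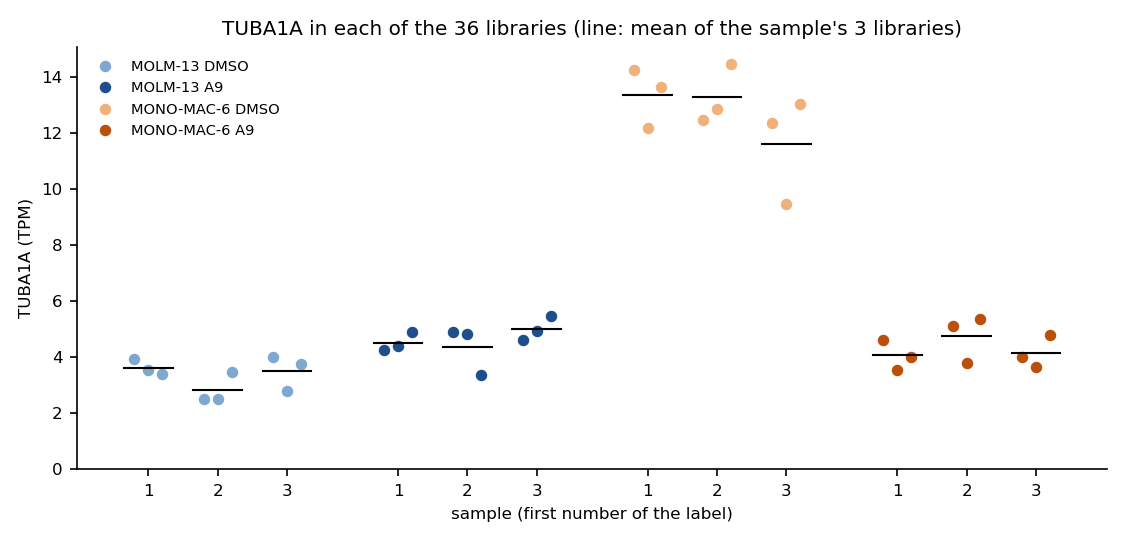
TUBA1A in TPM (y axis, from 0) in each of the 36 libraries, ordered by group and sample (x axis), with a line at each sample's mean. The 9 MONO-MAC-6 DMSO libraries were at 9.47 TPM or more, and no library of the other groups was above 5.47 TPM.

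The other alpha genes differed by less in MONO-MAC-6. TUBA1B was 1903, 1988 and 2060 TPM with DMSO and 1603, 1531 and 1595 TPM with A9, without overlap and with a log2 difference of -0.33 (SE 0.0746). TUBA4A was 29.0, 30.6 and 35.1 TPM with DMSO and 40.3, 39.1 and 38.9 TPM with A9, a difference of 0.31 (SE 0.102), again without overlap. TUBA1C overlapped, at 397, 411 and 433 TPM against 379, 364 and 397 TPM (-0.12, SE 0.0755). As a share of the summed alpha TPM, TUBA1A went from 0.458 to 0.571% with DMSO to 0.201 to 0.245% with A9, and TUBA1B from 81.1 to 81.4% to 78.4 to 79.1%.

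Of the beta genes, TUBB6 was 142, 124 and 137 TPM with DMSO and 111, 104 and 108 TPM with A9 (log2 difference -0.31, SE 0.0831). TUBB4B was 290, 284 and 311 TPM against 274, 261 and 270 TPM (-0.13, SE 0.0720), and neither gene's groups overlapped. TUBB was 580, 833 and 936 TPM with DMSO and 763, 733 and 764 TPM with A9. The difference for TUBB was -0.03 (SE 0.177), and its value of 580 TPM came from the DMSO sample that stood apart. TUBB3 was 1.04, 1.07 and 1.18 TPM against 0.809, 1.02 and 0.722 TPM (-0.18, SE 0.116).

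In MONO-MAC-6, 3.36% of all genes tested passed the limma threshold (2.51% higher and 0.855% lower). Of the 8 members TUBA1A was among them, which restates its choice, and nothing is read from it. The samples of 6 members did not overlap between treatments, 1 higher and 5 lower, against 37.9% of all genes (27.2% higher and 10.7% lower). The 5 lower include TUBA1A, chosen for its fall here, and TUBB3. With means of 1.09 TPM with DMSO and 0.851 TPM with A9, TUBB3 passed the minimum only through DMSO. Nothing is read from this count. Without DMSO sample 1, the log2 difference of TUBA1A was -1.34, those of TUBA1B (-0.36), TUBB (-0.23) and TUBB6 (-0.27) were also past the threshold, as was that of TUBA4A (0.26), and 3203 genes passed in place of 433. Without A9 sample 3, TUBA1A was at -1.35, no member passed and 60 genes did. With median-ratio scaling the differences were -1.53 for TUBA1A, -0.51 for TUBA1B, -0.30 for TUBA1C, 0.14 for TUBA4A, -0.20 for TUBB, -0.27 for TUBB3, -0.31 for TUBB4B and -0.49 for TUBB6, so all but TUBA1A and TUBB3 moved by over 1.5 times.

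Other measures moved with treatment in MONO-MAC-6. The summed myeloid markers were 3755 to 4272 TPM with DMSO and 8378 to 8664 TPM with A9. Most of each sum was LYZ, at 3068 to 3624 TPM with DMSO and 7564 to 7868 TPM with A9. CD14 was also higher, at 2.66 to 3.71 and 12.4 to 13.5 TPM. CEBPA was 313 to 351 and 377 to 391 TPM, and ITGAM overlapped at 2.52 to 3.85 and 2.66 to 3.43 TPM. The sum thus mainly follows LYZ and does not describe the markers as a set. The summed epithelial markers (KRT8 and KRT18 among them) were 13.9 to 16.3 TPM with DMSO and 8.00 to 9.29 TPM with A9, the neuronal markers 6.69 to 9.52 and 5.49 to 5.67 TPM, the B cell markers 9.33 to 10.7 and 6.0 to 6.78 TPM, and the erythroid markers (HBA1 among them) 5.76 to 8.80 and 2.61 to 4.79 TPM. Their part in the tubulin differences was not tested. The 17 proliferation genes summed to 1583 to 1966 TPM with DMSO and 1766 to 1806 TPM with A9, and none passed the threshold.

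The A9 effects in the lines were then set against each other. The log2 effect on TUBA1A was 0.39 for MOLM-13 and -1.37 for MONO-MAC-6, a difference of -1.76 (SE 0.156), or -1.95 relative to the median of all genes (0.20). Of all genes tested 2.99% passed (1.92% higher and 1.07% lower), and TUBA1A, chosen for this difference, was the 1 member among them, from which nothing is read. The TUBA1A difference was -1.67 to -1.82 when any 1 sample was left out. For TUBB6 the difference was -0.40 (SE 0.107), for TUBA1B -0.29 (SE 0.0825), for TUBA4A -0.19 (SE 0.151), for TUBB4B -0.18 (SE 0.0900), for TUBA1C -0.06 (SE 0.109), for TUBB 0.09 (SE 0.227) and for TUBB3 0.14 (SE 0.150). TUBA4A had positive differences with A9 for both lines, 0.50 and 0.31, neither past the threshold. Without MONO-MAC-6 DMSO sample 1 the TUBA1B difference was -0.32 and past the threshold.

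**Figure D4:**
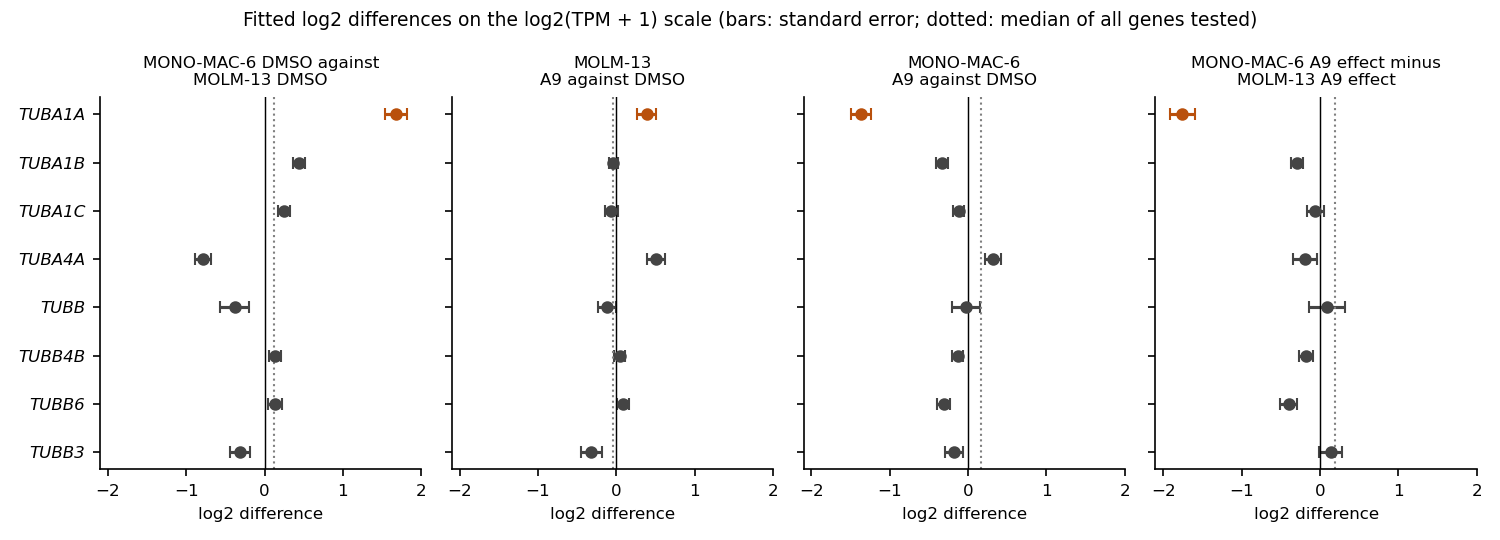
Fitted log2 differences (x axis) of the 8 tested tubulin genes in the 4 comparisons, with standard errors as bars and the median of all genes as a dotted line. TUBA1A lies at 1.67, 0.39, -1.37 and -1.76 from left to right, and the other 7 genes lie between -0.79 and 0.50.

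The low isotypes gave little further contrast. TUBB2A was 0.0911, 0.0581 and 0.0632 TPM in MOLM-13 DMSO, 0.0200, 0.0482 and 0.0202 TPM in MOLM-13 A9, 0.554, 0.505 and 0.690 TPM in MONO-MAC-6 DMSO and 0.760, 0.520 and 0.753 TPM in MONO-MAC-6 A9. Every MONO-MAC-6 sample lay above every MOLM-13 sample, but 5 of the 36 libraries listed TUBB2A at 0 and it was under the minimum for testing. TUBB2B, 98.1% identical to TUBB2A in its coding sequence, was listed at 0 throughout. The 38 tubulin pseudogenes in the tables summed to 0.356 to 4.84 TPM in a sample.

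Transcript use differed between members. TUBB-205 held nearly all of TUBB and TUBB4B-201 about 99% of TUBB4B, with 98.7 to 99.1% in the group means, and TUBA1B-202 held 99.5 to 99.8% of TUBA1B. TUBA1C was divided among TUBA1C-202 (38.7 to 49.2% in the group means), TUBA1C-204 (31.4 to 39.4%) and the retained-intron transcript TUBA1C-203 (11.3 to 24.6%), while TUBA1C-201, whose start is printed above, held 1.70 to 2.12%. TUBA1C-203 was 39.1 ± 2.03 TPM in MOLM-13 DMSO and 102 ± 8.92 TPM in MONO-MAC-6 DMSO (SD, n = 3), a wider gap than that of the whole gene. TUBA4A-201 held 59.5 to 65.3% of TUBA4A and TUBA4A-210, a non-coding transcript, 24.1 to 28.5%. TUBA4A-201 was 30.9, 31.3 and 36.0 TPM in MOLM-13 DMSO and 51.1, 52.7 and 50.8 TPM in MOLM-13 A9, a tighter separation than in the gene sum.

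The wider tubulin pathway was described through 8 lists holding 159 genes. Of the 12 other tubulin genes, 7 were tested between the untreated lines, and 4 were higher and 1 lower in MONO-MAC-6 (list median 0.78, all genes 0.12), against 30.4% and 18.4% of all genes. Genes under 1 TPM in one line entered the test only through the other, where they are high. Such genes are in the counts and in the list median, so nothing is read from these, and they are given by their values. TUBB4A, a neuronal beta-tubulin, was such a gene and was 0.0520, 0 and 0.0581 TPM in MOLM-13 DMSO and 3.67, 6.01 and 6.47 TPM in MONO-MAC-6 DMSO (log2 difference 2.59). TUBG1 and TUBG2, which encode the gamma-tubulin that seeds microtubules, were higher by 1.28 and 2.13. TUBA8, a divergent alpha-tubulin and another such gene, was 17.2, 19.9 and 21.3 TPM in MOLM-13 DMSO and at most 1.19 TPM in MONO-MAC-6 DMSO (-3.88).

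Between the untreated lines, 7 of the 21 folding genes were higher and 4 lower in MONO-MAC-6, near the shares of all genes (30.4% and 18.4%). ARL2, a small GTPase that works with the tubulin cofactors, was higher by 1.54, TBCA, which holds beta-tubulin, by 0.57, and the prefoldin subunit PFDN6 by 0.56. Median-ratio scaling ended the calls of TBCA and PFDN6, at limma adjusted p = 0.136 and 0.0746. Of the 8 subunits of the TRiC chaperonin, which folds new tubulin, 4 were lower, among them CCT2 (-1.51), CCT5 (-0.97) and TCP1 (-0.64). CCT3 was higher (0.34), and CCT4, CCT6A and CCT7 did not pass the threshold. Among the 12 autoregulation genes 2 were higher (CNOT11 by 0.69 and CNOT10 by 0.65) and 3 lower (CNOT6L by -2.20, CNOT2 by -1.26 and CNOT1 by -0.51). Without MONO-MAC-6 DMSO sample 1 the difference was -1.78 for CNOT6L and -0.32 for CNOT1. TTC5 itself was 6.63, 4.66 and 4.42 TPM in MOLM-13 DMSO and 5.14, 7.97 and 8.09 TPM in MONO-MAC-6 DMSO, and the groups overlapped.

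Of all genes tested between the untreated lines, 30.4% were higher and 18.4% lower in MONO-MAC-6, the shares to set beside these list counts. Of the 20 tubulin-modifying enzymes tested, 4 were higher, among them the deglutamylases AGBL5 (1.38) and AGBL3 (1.12), and 4 lower, among them TTLL11 (-0.88) and TTLL12 (-0.88), of the tubulin tyrosine ligase-like family, and TPGS1 (-0.71), a subunit of a polyglutamylase. Of the 26 microtubule-associated genes tested 7 were higher and 1 lower, the plus-end binding MAPRE2 (-1.54). The minus-end binding CAMSAP2 averaged 0.235 TPM in MOLM-13 DMSO and 3.66 in MONO-MAC-6 DMSO. In the gamma-tubulin ring and augmin list of 19, 5 were higher and 6 lower: HAUS4 and HAUS7 were lower by -2.02 and -1.30 and MZT1 was higher by 0.80. Of the 29 motors tested 6 were higher and 4 lower. The dynein light chain DYNLT3 averaged 0.0268 TPM in MOLM-13 DMSO and 4.69 in MONO-MAC-6 DMSO, and KIF23, a kinesin of cell division, was lower by -0.76. Of the 17 proliferation genes 2 were higher, the mitotic kinase AURKA by 0.50 and the DNA replication gene MCM2 by 0.43, and 7 lower, among them MKI67 by -1.68 and MCM5 by -0.92. Without MONO-MAC-6 DMSO sample 1 the difference was -0.50 for KIF23 and -1.15 for MKI67. The counts of higher genes include TTLL7, CAMSAP2, MAP1A, MAP7, DYNLT3 and KIF1B. These were under 1 TPM in MOLM-13 DMSO and entered the test only through MONO-MAC-6. The genes called higher or lower passed the limma threshold, but 13 of the 40 named by rule lost their call in at least 1 alternative. CNOT1 lost it in 7 of 15, KIF23 in 6, TPGS1 in 6, AURKA in 7, MCM2 in 6 and MKI67 in 4. TBCA, PFDN6, CNOT10 and MAPRE2 lost it in 1 each.

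With A9, no gene of any of the 8 lists passed the limma threshold in either line, where 0.121% of all genes passed for MOLM-13 and 3.36% for MONO-MAC-6. At an unadjusted p under 0.05 the lists held 0 or 1 gene each in MOLM-13, against 7.90% of all genes. In MONO-MAC-6 they held 7 of 21 for the modifying enzymes, 5 of 19 for the ring and augmin genes, 4 of 21 for folding and at most 2 for each of the rest, against 20.5% of all genes. The median of the modifying enzymes in MONO-MAC-6 was 0.33, above the 0.16 of all genes, and that of the folding genes was -0.09. The 12 autoregulation genes had a median of -0.21 in MOLM-13 (all genes -0.05) and 0.19 in MONO-MAC-6. TTC5 was 5.14, 7.97 and 8.09 TPM with DMSO and 8.18, 9.12 and 8.47 TPM with A9 in MONO-MAC-6, with the lowest value again in DMSO sample 1. TUBB4A, chosen here after its values were seen, was 3.67, 6.01 and 6.47 TPM with DMSO and 3.06, 2.96 and 2.58 TPM with A9 in MONO-MAC-6, without overlap and not past the threshold.

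Between the lines' A9 effects, 1 list gene passed: MZT1, a small subunit of the gamma-tubulin ring, was 39.8, 39.8 and 36.9 TPM with DMSO and 42.1, 41.2 and 43.2 TPM with A9 in MOLM-13. In MONO-MAC-6 it was 67.6, 76.2 and 61.9 TPM with DMSO and 54.4, 52.3 and 48.4 TPM with A9. The difference of effects was -0.51 (SE 0.117, limma adjusted p = 0.0445), and it missed the threshold in 15 of 22 alternatives, at up to 0.128.

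The genes whose levels ran most like TUBA1A were sought among 7835 genes that averaged 5 TPM or more in every group, by the correlation of log2(TPM + 1) over the 12 samples with each line's mean removed. The samples share lines, treatments and tables, so these values only describe. The closest were MVD, an enzyme of cholesterol synthesis (r = 0.97), the membrane protein gene EMP3 (0.96), IGFBP7, which encodes a secreted growth factor binding protein (0.95), DIPK1B (0.95) and NUCB2, which encodes a calcium-binding protein (0.95). MVD averaged 43.8 TPM in MOLM-13 DMSO, 47.1 in MOLM-13 A9, 56.5 in MONO-MAC-6 DMSO and 33.2 in MONO-MAC-6 A9. For EMP3 the means were 313, 352, 276 and 163 TPM in that order, so its level in untreated MONO-MAC-6 was not the higher one. Among the tubulin genes the correlation with TUBA1A was 0.82 for TUBA1B, 0.81 for TUBB6, 0.58 for TUBB4B, 0.33 for TUBA1C, -0.10 for TUBB and -0.29 for TUBA4A.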

How the data were processed

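The authors deposited TPM values per Ensembl transcript, 1 table for each line. The submitters' processing notes name kallisto, limma and GRCh38. Versions, the annotation and strand use are not given in the sources used here. Of 207175 transcripts, 162561 (78.5%) matched GENCODE 29 by ID and held 89.9 to 91.4% of a library's TPM. Those were summed by gene, and the rest were left out, so a tubulin transcript among them is not counted. The 3 libraries sharing line, treatment and first number were averaged into 1 sample. limma 3.58.1 (R 4.3.3) was fitted to log2(TPM + 1), with a trend on the mean and robust settings, for genes averaging 1 TPM or more in a group. p-values were adjusted by Benjamini and Hochberg over all genes tested, with a threshold of 0.05. The fit was tested on simulated data.

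The members and lists were chosen with earlier results of these data known. Named are all 10 members, up to 3 raised and 3 lowered genes of each list past the threshold, and the 5 genes most like TUBA1A. Alternatives were another pseudocount, filters, median-ratio scaling, other library units, a replicate block, protein-coding transcripts alone, leaving out each sample and, chosen after seeing the data, removing a trend on transcript length. Coding sequences came from GENCODE 29 and were aligned with Biopython 1.88.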

Additional observations from a re-analysis of the deposited data

Results flagged for a closer look

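TUBA1A had A9 differences of opposite sign in the lines, with non-overlapping samples in each: the MOLM-13 samples were higher with A9 and the MONO-MAC-6 samples lower. The MOLM-13 difference was 0.39 and not among the calls, and its single libraries overlapped between treatments. In that line the samples of 15.0% of all genes did not overlap. The difference between the effects was -1.76 on the log2 scale (SE 0.156). TUBA1A was listed for this difference, so the value is a description. The lines received different doses, and line and dose cannot be told apart.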

How the results depend on the processing

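TUBA1A kept its direction in every alternative of the 4 comparisons, which is a description, since it was chosen on these samples, and it is included in the counts below.

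Members past the threshold, 4 of 8 between the untreated lines, were 8 with each library as its own sample and 8 with libraries averaged by second number. In MOLM-13 the main count of 0 became 1 with median-ratio scaling, 2 with single libraries, 8 by second number and 1 without the length trend. In MONO-MAC-6 the main count of 1 became 6 with single libraries, 7 by second number and 2 without the length trend. For the difference of effects 1 became 4, 7 and 3. Leaving out 1 sample gave 3 to 4, 0 to 0, 0 to 5 and 1 to 2 members in the 4 comparisons.

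Of all genes, 6307 passed between the untreated lines, 11056 by second number and 4110 with the replicate block (4646 to 8067 leaving out 1 sample). In MOLM-13, 14 passed, 4 with no filter, 48 with scaling, 1742 with single libraries, 5437 by second number, 87 with the block and 163 without the length trend (2 to 8 leaving out 1 sample). In MONO-MAC-6, 433 passed, 254 with no filter, 5586 with single libraries, 8702 by second number, 275 with the first repeat library alone, 94 with the block and 1197 without the length trend (59 to 3203). For the difference of effects 401 passed, 5618 with single libraries, 8503 by second number, 215 with the first library alone, 207 with the block and 791 without the length trend (197 to 549). Repeat libraries of a sample are not independent, and averaging by second number mixes samples, so those fits see less spread. The causes of the other shifts were not tested.

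The split of calls moved with scaling: in MONO-MAC-6 from 323 higher and 110 lower to 341 and 213, and to 626 and 571 without the length trend. For the difference of effects it moved from 258 and 143 to 382 and 409 without the length trend.

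With the replicate block, TUBA1C lost its call between the lines (limma adjusted p = 0.152) and no other member changed side. Same-numbered deviations correlated at 0.361, -0.0770 and 0.676 for MOLM-13 and at -0.0272, 0.0879 and -0.0909 for MONO-MAC-6. Between the untreated lines they correlated at -0.647, 0.0683 and -0.595. The numbers thus did not pair all samples in any comparison. For MOLM-13 the value of 0.676 was the highest of any pair, and DMSO sample 1 with A9 sample 2 gave 0.631.

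Signs turned for small differences. For MOLM-13, TUBA1B was 0.0125 with scaling, and leaving out 1 sample gave -0.0760 to 0.0027 for TUBA1B, -0.124 to 0.0227 for TUBA1C and -0.188 to 0.00067 for TUBB. For MONO-MAC-6, TUBB was -0.229 to 0.115, at 0.0309 without DMSO sample 2. For the difference of effects TUBA1C was 0.0081 with protein-coding transcripts alone and -0.145 to 0.0015 leaving out 1 sample. TUBB was -0.138 with scaling, -0.179 without the length trend and -0.111 to 0.233 leaving out 1 sample, at -0.0283 without MOLM-13 A9 sample 3. With no read totals, the depth behind the low genes (TUBA1A, TUBB3, TUBB2A) is unknown.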
